A study of Mus musculus with 6 samples.

Results

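Insulin-like growth factors (IGFs) circulate bound to a family of secreted binding proteins, and their signal enters cells through tyrosine kinase receptors of the insulin type. Expression of 10 genes of this system was compared between normal livers and liver tumors: the binding protein genes Igfbp1, Igfbp2, Igfbp3, Igfbp4, Igfbp5, Igfbp6 and Igfbp7, the receptor genes Igf1r and Insr, and Irs1, which encodes the docking protein that both receptors phosphorylate. They were taken by gene name out of 34741 gene names on the array, with earlier results of these data known. The array carried 15 probes for them, and each of the 10 genes had at least 1. The samples were total RNA from 3 normal livers and from 3 liver tumors of male C3H mice, 74 to 75 weeks old. The mice were the F2 offspring of C3H/HeN animals in a control group kept on a standard diet, and by the study's methods all 3 tumors carried a Ha-ras mutation. Each RNA was hybridised to one array with a single dye. Whether the samples of a group came from separate mice is not given in the labels, so the p-values measure the spread between these samples.

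IGF1 in blood comes mostly from the liver, where growth hormone acting on its receptor drives transcription of the gene, and most of it travels in a complex of IGF1, IGFBP3 or IGFBP5 and the acid-labile subunit encoded by Igfals. IGFBP1 is made in hepatocytes. Its gene is switched on in fasting and by stress, and insulin represses it through the PI3K-AKT-FOXO pathway, which also represses the gluconeogenic genes Pck1 and G6pc.

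The repression of Igfbp1 by insulin acts through a pair of FOXO-binding elements close to the start of the gene. The upstream sequence of Igfbp1 is shown because this gene changed most among the 10, and that of Irs1 because it was the only other promoter of the set with a match. G6pc is shown beside them as an insulin-repressed gene that moved in the opposite direction. Each line gives the 250 bases before the RefSeq start, read 5′ to 3′ on the strand of the gene (GRCm38.p6). Capitals mark CAAAACA and CAAAATA on either strand, so that TGTTTTG and TATTTTG are the same motifs read on the other strand.
Igfbp1, chr11:7197537-7197786, plus strand: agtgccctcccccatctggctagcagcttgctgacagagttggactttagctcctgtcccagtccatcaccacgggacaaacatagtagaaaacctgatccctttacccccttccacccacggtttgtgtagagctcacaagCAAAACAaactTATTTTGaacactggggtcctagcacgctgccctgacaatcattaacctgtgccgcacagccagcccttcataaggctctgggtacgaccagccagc
Irs1, chr1:82291440-82291689, minus strand: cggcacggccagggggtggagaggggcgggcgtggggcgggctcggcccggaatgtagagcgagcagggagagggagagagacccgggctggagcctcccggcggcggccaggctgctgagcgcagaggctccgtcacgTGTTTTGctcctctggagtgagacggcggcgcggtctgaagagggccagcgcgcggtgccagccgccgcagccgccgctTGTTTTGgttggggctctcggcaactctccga
G6pc, chr11:101367466-101367715, plus strand: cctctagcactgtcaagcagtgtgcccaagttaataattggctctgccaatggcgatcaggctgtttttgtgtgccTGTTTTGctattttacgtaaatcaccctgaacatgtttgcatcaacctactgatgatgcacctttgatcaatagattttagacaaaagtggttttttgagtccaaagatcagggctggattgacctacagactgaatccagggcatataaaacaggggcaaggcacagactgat
In Igfbp1, CAAAACA began 108 bases and the reverse of CAAAATA 97 bases before the start, separated by a few bases. Irs1 held CAAAACA on the opposite strand at 111 and 32 bases before the start, and G6pc held it once, at 174 bases. Neither motif was found in the same window of Pck1, the other insulin-repressed gene that was lower in the tumors. Bases further upstream were not searched. Esm1 held CAAAACA once in its window, at 112 bases, while the windows of Trib3, Igf1, Igfals and Kazald1 held neither motif. Of 32851 promoters of the same length, 5.6% held CAAAACA, 4.0% held CAAAATA, 9.1% held either and 0.4% held both. RefSeq promoters were matched for 9 of the 10 genes, Insr being the exception, and 2 of their 10 promoters held either motif. These matches describe the letters in the window only. The motifs were chosen after the values were seen, so the shares do not test whether the matches of Igfbp1 are unusual.

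The arrays were alike in their share of spots well above background, from 42.7% to 46.7%. All normal livers were on slide 1 and all tumors on slide 2, and a slide effect therefore cannot be told apart from one of the tissue. Local background had a median of 42.0 to 45.0 intensity units on slide 1 and of 22.0 to 23.0 on slide 2, a difference that is large beside the signals of the dim probes. Its part in their values was not tested. Expression values are the ratio of a probe's signal to the 75th percentile of its array, on a linear scale. As different probes bind with different strength, the value of one gene is not set against that of another, and sums over a list serve only to set the groups side by side.

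Of the 10 genes, 9 were tested and 3 were called at an adjusted p under 0.05 (limma, Benjamini-Hochberg over all probes). Igfbp1 was higher in the tumors, and Igfbp4 and Igfbp5 were lower. Among all 18545 genes tested, 34.1% were called, 13.1% as higher and 21.0% as lower, so the share of these genes called was close to that of genes in general. The balance of directions depended on the scaling, as 37.8% of the called probes were higher in the tumors and 53.7% with spike-in scaling. The median log2 difference of the 9 tested genes was -0.46, beside -0.13 for all genes tested. The groups did not overlap for 6 of the 9 genes (Igfbp1, Igfbp4, Igfbp5, Igf1r, Insr and Irs1), beside 51.8% of all genes tested. With 3 samples against 3, the exact two-sided permutation test cannot go below p = 0.1, which it reached for each of these 6.

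**Figure D1:**
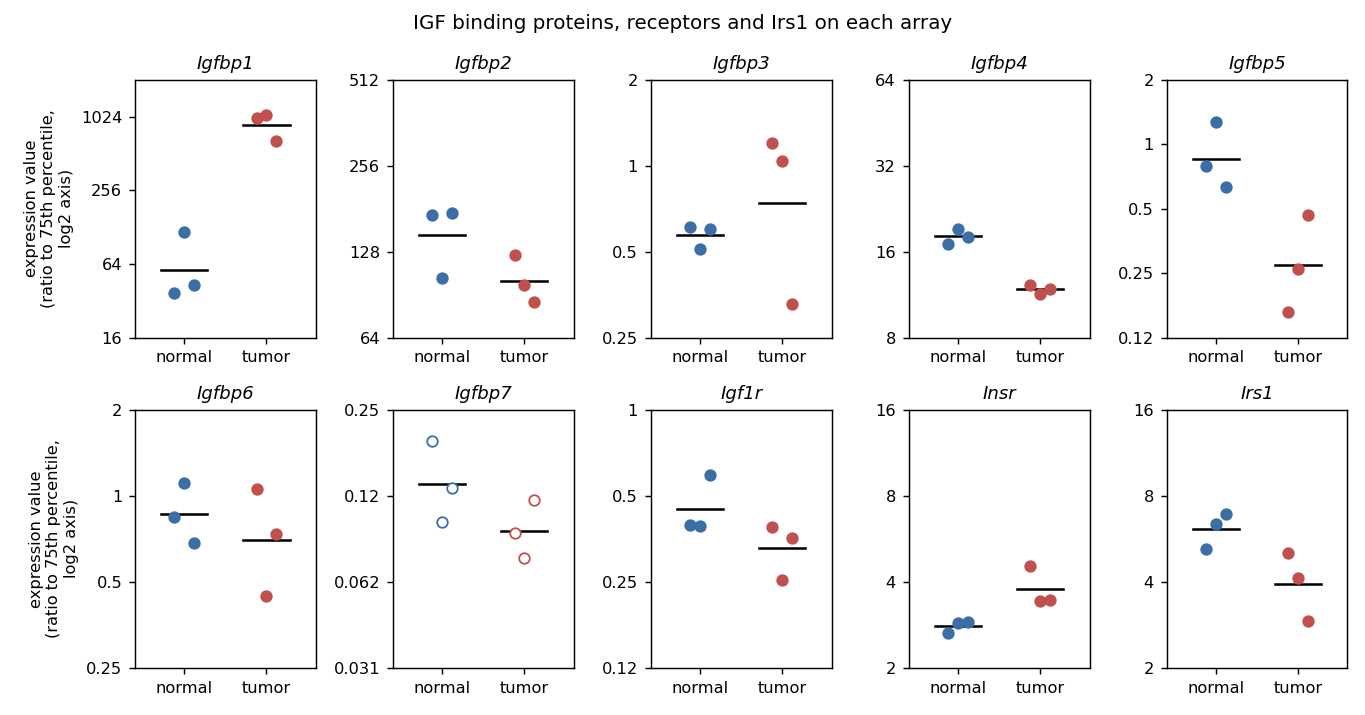
Expression value of each gene on the 6 arrays, by its brightest probe (vertical log2 axis, with its own range in each panel; blue, normal liver; red, liver tumor; bars, mean of the log2 values; open symbols, groups with the probe at background on 1 or more arrays). The tumors stand above the normal livers for Igfbp1 and Insr and below them for Igfbp4, Igfbp5, Igf1r and Irs1.

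Among the binding proteins, Igfbp1 was the gene with the largest change. Its expression value was 37.2, 118 and 43.4 in the normal livers and 994, 1062 and 645 in the tumors. The 3 tumors all stood far above the normal livers, among which replicate 2 was the highest. The means were 66.1 ± 44.8 (SD, n = 3) and 900.0 ± 224 (SD, n = 3). By limma the log2 difference was 3.94 (SE 0.45, 95% interval 2.85 to 5.02, adjusted p = 0.00215), a 15.3-fold rise. Igfbp1 was called whichever array was left out.

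The 3 genes whose log2 values followed those of Igfbp1 most closely over the 6 arrays were H2-Bl, a class I major histocompatibility gene (Pearson r = 0.9989), Dntt, which encodes terminal deoxynucleotidyltransferase (r = 0.9984), and Ggct, which encodes an enzyme of glutathione breakdown (r = 0.9982). Dntt was at 1.26, 2.88 and 1.46 in the normal livers and 21.6, 20.7 and 14.9 in the tumors. Like Igfbp1, it was highest among the normal livers in replicate 2 and lowest among the tumors in replicate 3. An r above 0.9 was found for 1632 of the tested genes, since the 6 arrays share one split into normal livers and tumors, and the likeness is given as a description.

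Igfbp4, a binding protein that inhibits IGF action and is cut by the protease encoded by Pappa, was lower in the tumors. Its values were 17.1, 19.3 and 18.0 in the normal livers and 12.3, 11.4 and 11.8 in the tumors. The spread within each group was small and the groups stood clearly apart. The means were 18.1 ± 1.10 and 11.8 ± 0.443 (SD, n = 3 each). The log2 difference was -0.62 (SE 0.11, limma adjusted p = 0.00737), 1.53-fold lower in the tumors. Scaling by the spike-in controls took this call away (log2 difference -0.53, adjusted p = 0.153).

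Igfbp5, which binds to extracellular matrix as well as to IGFs, was also lower in the tumors. It read 0.789, 1.27 and 0.629 in the normal livers and 0.164, 0.261 and 0.468 in the tumors. Although the groups did not overlap, the values within each spread widely, and the lowest normal liver was close to the highest tumor. The means were 0.896 ± 0.333 and 0.298 ± 0.155 (SD, n = 3 each). The log2 difference was -1.66 (SE 0.42, limma adjusted p = 0.0273), 3.16-fold lower in the tumors. This call was lost when normal liver 1, normal liver 2, tumor 1 or tumor 2 was left out (adjusted p = 0.066, 0.0806, 0.0535 and 0.0713). It was also lost when no filter on dim probes was used (adjusted p = 0.0761). With normexp background correction the difference was -0.91 (adjusted p = 0.0111). That correction adds an offset of 50 to every spot, which by itself shrinks differences of dim probes.

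Igfbp5 is known to be made by mesenchymal cells, and several markers of stellate cells and fibroblasts moved with it. Of 10 such markers, 5 were lower (Dcn, Lrat, Des, Pdgfrb and Lum) and 2 were higher (Reln and Col1a1) in the tumors. Over all genes tested, 21.0% were called as lower and 13.1% as higher. The summed level of the list was 89.0 to 106.0 in the normal livers and 30.2 to 50.5 in the tumors, and all 10 markers were well above background on every array of at least 1 group. That fall was carried by Dcn, as the other 9 markers summed to 9.61 to 13.9 in the normal livers and 12.4 to 17.6 in the tumors. Their part in the fall of Igfbp5 was not tested. In tissue RNA, fewer cells of a type and less RNA per cell cannot be told apart.

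Igfbp2, a binding protein the adult liver secretes into blood, was not called. It read 172, 103 and 175 in the normal livers and 125, 97.5 and 85.5 in the tumors. Normal liver 2 fell among the tumors, so the groups overlapped. The log2 difference was -0.53 (95% interval -1.13 to 0.08, limma adjusted p = 0.154), and the other probe of the gene gave -0.51 (adjusted p = 0.151). Without normal liver 2 the difference was -0.78 and was called (adjusted p = 0.0452).

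Igfbp3, the main carrier of IGF1 in blood, is known to be made in the liver mostly by cells other than hepatocytes. It read 0.609, 0.511 and 0.599 in the normal livers and 1.20, 1.04 and 0.328 in the tumors. Tumors 1 and 2 stood above the normal livers and tumor 3 below them. The log2 difference of 0.38 was not called (95% interval -0.77 to 1.52, limma adjusted p = 0.58), but without tumor 3 it was 0.97 and was called (adjusted p = 0.0097). The signal of the other probe did not clear the background on any of the 6 arrays. Of 10 endothelial cell markers, 1 was higher (Emcn) and 2 were lower (Stab2 and Clec4g), beside 13.1% and 21.0% over all genes tested. Clec4g only just passed (limma adjusted p = 0.0496), and the dimmer probes of Stab2, not called, gave 0.09 and 0.02. The summed level of the endothelial markers was 130 to 151 in the normal livers and 105 to 120 in the tumors. Their part in the values of Igfbp3 was not tested.

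The remaining binding proteins showed no called difference. Igfbp6, which prefers IGF2, read 0.845, 1.11 and 0.684 in the normal livers and 1.05, 0.446 and 0.737 in the tumors, with overlapping groups. Its log2 difference was -0.29 (95% interval -1.10 to 0.51, limma adjusted p = 0.541). Igfbp7, a related protein with low affinity for IGFs that is abundant in vessel walls, was well above background in 2 of the 3 normal livers and 1 of the 3 tumors. It was left out of the test for that reason and read 0.194, 0.101 and 0.133 in the normal livers and 0.0925, 0.0757 and 0.121 in the tumors.

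In the mouse genome 4 of the binding protein genes lie in 2 pairs that face each other tail to tail. Igfbp1 (chr11:7197787-7202546, plus strand) and Igfbp3 (chr11:7206086-7215498, minus strand) are 3539 bases apart. Igfbp2 (chr1:72824480-72852474, plus strand) and Igfbp5 (chr1:72858065-72874865, minus strand) are 5590 bases apart. In each pair 1 gene was called and the other was not, and whether the neighbours differed in their change was not tested.

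Of the receptors, Igf1r, which binds IGF1 and IGF2, is known to be scarce in adult hepatocytes. It read 0.396, 0.392 and 0.590 in the normal livers and 0.388, 0.255 and 0.355 in the tumors. The highest tumor lay just under the lowest normal liver. The log2 difference was -0.46 (95% interval -1.01 to 0.09, limma adjusted p = 0.170) and was not called.

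Insr, the insulin receptor, was measured by 3 probes that moved alike. The brightest read 2.64, 2.88 and 2.89 in the normal livers and 4.55, 3.44 and 3.46 in the tumors. All 3 tumors were above all 3 normal livers, and tumor 1 was the highest. The log2 difference of that probe was 0.43 (95% interval 0.09 to 0.78, limma adjusted p = 0.0611) and missed the threshold. The other probes gave 0.47 (adjusted p = 0.0414) and 0.60 (adjusted p = 0.0234), both called, and the mean of the 3 probes gave 0.50 (adjusted p = 0.0283).

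Irs1, the docking protein that passes the signal of both receptors to PI3K, pointed the other way. The brighter probe read 5.20, 6.39 and 6.94 in the normal livers and 5.07, 4.12 and 2.91 in the tumors. The groups did not overlap, though tumor 1 was close to normal liver 1. The log2 difference was -0.64 (95% interval -1.19 to -0.10, limma adjusted p = 0.0722) and missed the threshold, while the dimmer probe gave -0.55 (adjusted p = 0.0395) and the mean of both -0.60 (adjusted p = 0.0487). Hence Insr and Irs1 were each called by a dimmer probe and not by the brightest.

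**Figure D2:**
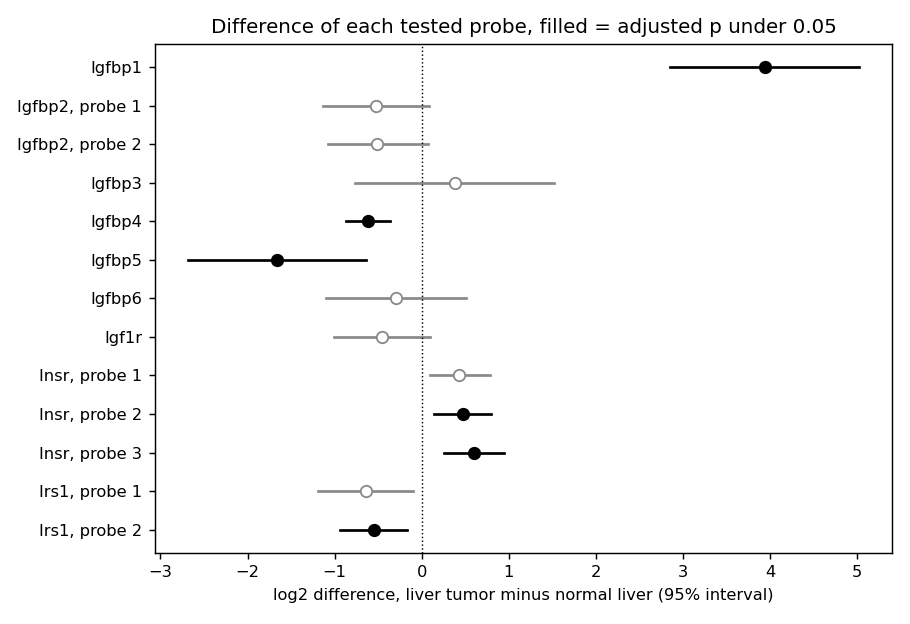
Log2 difference, tumor minus normal liver, of each of the 13 tested probes of the 10 genes with its 95% interval (horizontal axis; limma; filled symbols, adjusted p under 0.05; probes of a gene are numbered from the brightest). Igfbp1 stands alone at 3.94, while the other called probes lie between -1.66 and 0.60.

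The ligands, carriers and proteases that act with these genes were read in the same fit. Of 12 such genes 6 were tested, and in the tumors 2 had risen and 3 had fallen. The median log2 difference of the tested genes was -0.80, also with Stc1, described below, at its lower bound. Over all genes tested, 34.1% were called. Igf2, Ins1, Insrr, Pappa, Pappa2 and Stc2 did not clear the background on any of the 6 arrays. For Igf2, the fetal ligand, the 6 values lay at this limit, between 0.0267 and 0.0411.

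Igf1 was lower in all tumors. It read 204, 226 and 236 in the normal livers and 43.3, 72.9 and 112 in the tumors (log2 difference -1.65, SE 0.33, limma adjusted p = 0.0121), 3.13-fold lower. Of its other 4 probes, 3 were called, at -1.63, -1.97 and -2.0, and the other gave -0.41 (adjusted p = 0.369). Igfals, the acid-labile subunit, read 14.6, 13.2 and 13.9 in the normal livers and 0.505, 2.87 and 3.51 in the tumors (log2 difference -3.01, SE 0.70, adjusted p = 0.0200), 8.06-fold lower. Tumor 1 was by far the lowest, and without it the log2 difference was -2.13 (adjusted p = 0.00075). Leaving out any normal liver took the call away (adjusted p = 0.0567 to 0.0598).

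Ghr, the growth hormone receptor, fell as well. It read 109, 135 and 116 in the normal livers and 14.9, 30.4 and 33.3 in the tumors (log2 difference -2.27, SE 0.31, limma adjusted p = 0.00368), 4.83-fold lower. For Igf1, Igfals and Ghr alike, tumor 1 was the lowest and tumor 3 the highest of the tumors. Igf2r, the receptor that takes IGF2 up for breakdown, was higher, at 4.15, 5.10 and 5.13 in the normal livers against 7.51, 7.77 and 7.84 in the tumors (log2 difference 0.69, SE 0.12, adjusted p = 0.00856). Stc1, which encodes a stanniocalcin that inhibits the Pappa protease, did not clear the background in the normal livers and read 0.173, 0.188 and 0.125 in the tumors, at least 1.41-fold higher (adjusted p = 0.00163). It passed the filter through the tumors alone. With normexp background correction, whose offset by itself shrinks differences of dim probes, Stc1 was not called (log2 difference 0.34, adjusted p = 0.0689).

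Other proteins share the IGFBP domain without belonging to the family, and 2 of their genes had larger log2 differences than Igfbp1. Of 12 such genes 8 were tested, with 3 higher, 2 lower (beside 13.1% and 21.0% over all genes) and a median log2 difference of 0.24. Esm1, the endothelial proteoglycan endocan, read 0.680, 0.445 and 0.530 in the normal livers and 23.1, 10.7 and 23.0 in the tumors (log2 difference 5.04, SE 0.33, limma adjusted p = 0.000302), 32.8-fold higher, and its log2 difference was 4.25 with normexp background correction. Kazald1 read 0.678, 0.718 and 0.724 in the normal livers and 26.2, 16.3 and 16.7 in the tumors (log2 difference 4.77, SE 0.20, adjusted p = 6.23e-05), 27.3-fold higher. For both genes the lowest tumor lay far above the highest normal liver.

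Among the HTRA serine proteases that carry an IGFBP domain at one end, Htra1 and Htra4 were lower in the tumors, and Htra3 was too dim to be tested. Htra1 read 1.82, 1.70 and 1.97 in the normal livers and 0.714, 0.995 and 0.986 in the tumors (log2 difference -1.04, SE 0.16, limma adjusted p = 0.00549). Htra4 read 0.286, 0.323 and 0.276 in the normal livers and did not clear the background in the tumors, at least 2.87-fold lower (adjusted p = 3.32e-05). It passed the filter through the normal livers alone. With normexp background correction its log2 difference was -0.96 (adjusted p = 0.000319), a smaller change than that bound. As the offset of that correction by itself shrinks differences of dim probes, this value does not check the bound.

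**Figure D3:**
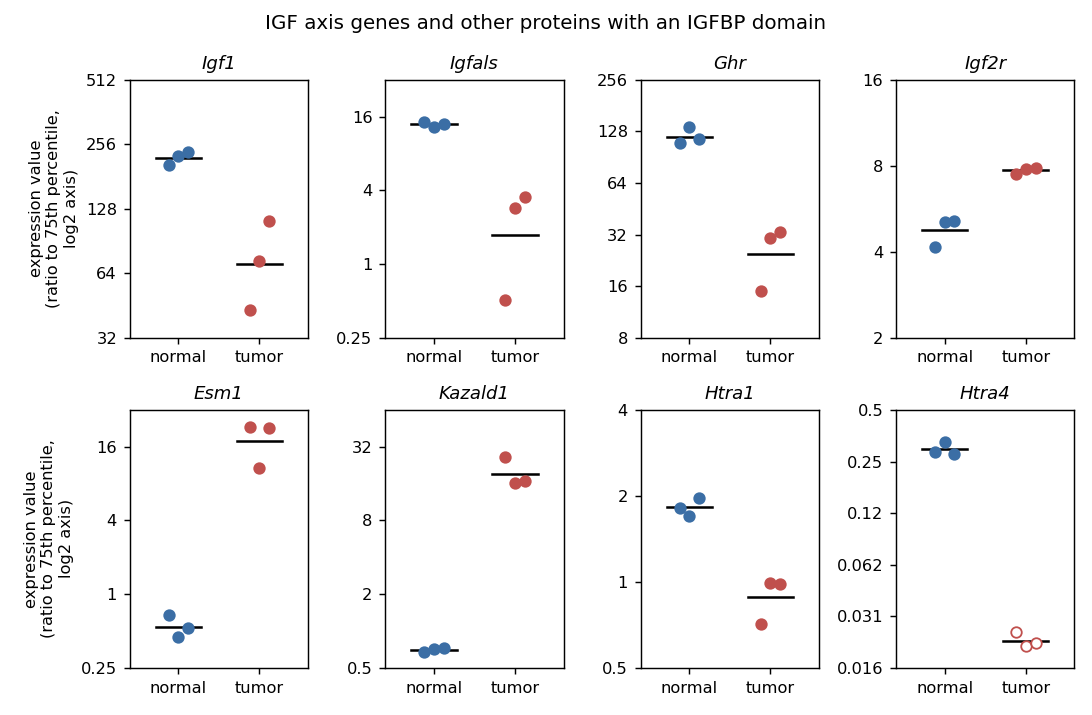
Expression value on the 6 arrays of Igf1, Igfals, Ghr and Igf2r (upper row) and of 4 other genes whose proteins carry an IGFBP domain (lower row), on log2 axes with the symbols of the plot of the 10 genes by array. The groups are apart in all 8 panels, with Igf1, Igfals, Ghr, Htra1 and Htra4 lower and Igf2r, Esm1 and Kazald1 higher in the tumors.

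Downstream of the receptors, 11 of the 31 genes of insulin and IGF signalling, all of them tested, were called, 4 as higher and 7 as lower, beside 34.1% of all genes tested. The median log2 difference of the list was -0.19, and 20 genes did not pass. Trib3, a pseudokinase that binds AKT and is induced by stress, changed most. It read 3.61, 6.43 and 8.33 in the normal livers and 36.5, 26.4 and 31.7 in the tumors (log2 difference 2.43, SE 0.31, limma adjusted p = 0.00307). Sh2b2, an adaptor of the insulin receptor, read 1.03, 0.505 and 0.943 in the normal livers and 2.49, 1.72 and 1.63 in the tumors (log2 difference 1.28, adjusted p = 0.0227), a call lost without tumor 1 (adjusted p = 0.0567). Irs4 was 2.21-fold lower in the tumors (log2 difference -1.15, adjusted p = 0.00581). Irs2, the other main docking protein of the liver, was not called. It read 14.3, 26.9 and 22.5 in the normal livers and 8.89, 18.1 and 10.5 in the tumors, with overlapping groups (log2 difference -0.79, 95% interval -1.59 to 0.02, adjusted p = 0.119). Without tumor 2 the difference was -1.09 and was called (adjusted p = 0.0463).

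Of 10 genes that insulin represses in liver, as it does Igfbp1, all were tested and 3 were called, beside 34.1% of all genes tested. In the tumors 1 was higher (Trib1) and 2 were lower (Pck1 and G6pc), while 7 did not pass, with a median log2 difference of -0.24. Pck1, the gluconeogenic enzyme PEPCK, read 92.1, 178 and 179 in the normal livers and 58.4, 50.6 and 58.1 in the tumors (log2 difference -1.37, SE 0.27, limma adjusted p = 0.0120). G6pc, which releases free glucose, read 106, 213 and 112 in the normal livers and 18.7, 44.0 and 24.4 in the tumors (log2 difference -2.32, SE 0.39, adjusted p = 0.00704). Both were lower in all 3 tumors than in any normal liver, whereas Igfbp1 was higher in all 3.

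Of 9 genes that insulin induces in liver, 4 were higher and 1 was lower, beside 13.1% higher and 21.0% lower over all genes tested, with a median log2 difference of 0.59. The higher genes were Fasn, Acly, Acaca and Pnpla3, and the lower one was Srebf1, a transcription factor of fatty acid synthesis (log2 difference -0.58, limma adjusted p = 0.0303). Fasn read 2.90, 3.75 and 2.77 in the normal livers and 7.37, 6.23 and 8.40 in the tumors (log2 difference 1.23, limma adjusted p = 0.00404). Acly, which supplies acetyl-CoA for that synthesis, read 76.8, 75.1 and 56.3 against 139, 162 and 178 (log2 difference 1.21, adjusted p = 0.00395). The tumors lay above the normal livers in both genes. Pnpla3, a lipid droplet protein, read 0.293, 0.119 and 0.152 against 3.33, 0.946 and 1.31 (log2 difference 3.20, adjusted p = 0.00668). It was well above background in 2 of the 3 normal livers, and with normexp background correction its difference was 1.65. Its other probe, well above background in 1 of the 3 normal livers, gave 4.78 (adjusted p = 0.00293), and the mean of both was 3.99. Both probes passed the filter through the tumors alone, so the size of these differences rests partly on normal values at background.

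**Figure D4:**
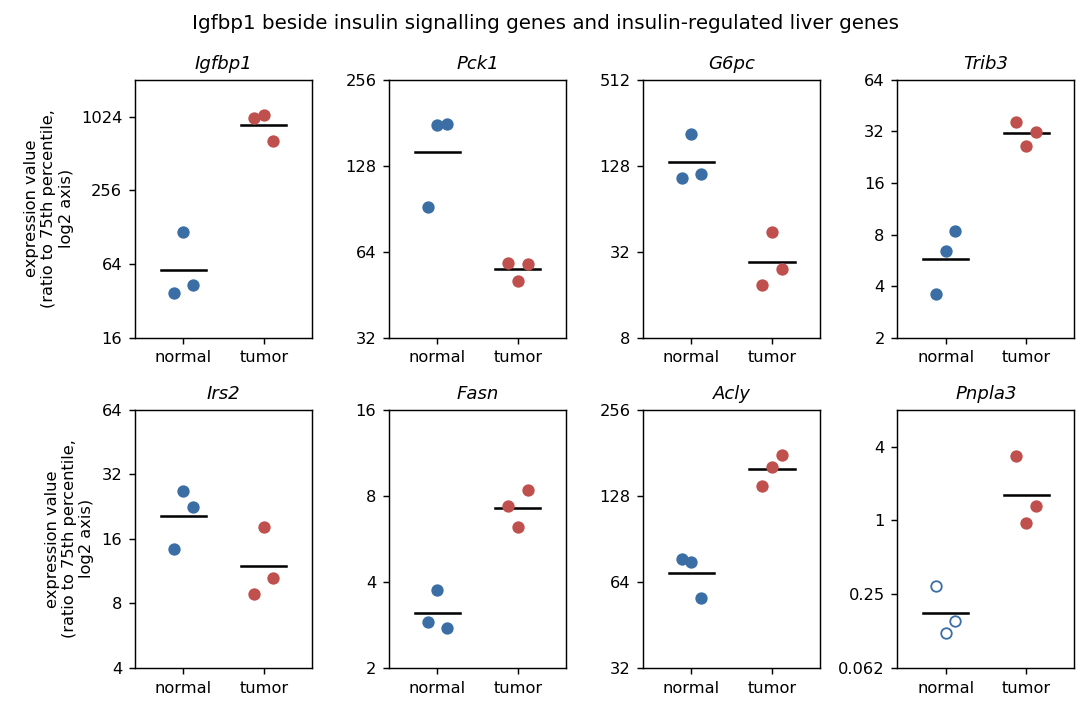
Expression value on the 6 arrays of Igfbp1, of insulin-repressed Pck1 and G6pc, of the signalling genes Trib3 and Irs2, and of insulin-induced Fasn, Acly and Pnpla3, on log2 axes with the symbols of the plot of the 10 genes by array. The tumors are above the normal livers for Igfbp1, Trib3, Fasn, Acly and Pnpla3 and below them for Pck1 and G6pc, and the groups overlap for Irs2.

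Markers of the liver's cell types were read beside these genes. Over all genes tested, 13.1% were called as higher and 21.0% as lower. Of 8 hepatocyte markers, 1 was higher (Apoa1) and 1 lower (Tat), while Alb had a log2 difference of -0.06 (limma adjusted p = 0.760) and Hnf4a of 0.16 (adjusted p = 0.436). The summed level of this list was 8809 to 10150 in the normal livers and 9094 to 9420 in the tumors. Of 8 macrophage markers, 6 were lower (Clec4f, Vsig4, Csf1r, Cd68, Cd5l and Timd4), with a summed level of 101 to 174 in the normal livers and 51.4 to 84.7 in the tumors. The cholangiocyte list had 1 of 4 tested markers higher (Cldn7, by its brighter probe, while its dimmer probe was lower). The summed level of that list was 2.42 to 2.98 against 2.73 to 12.7 (1.94 to 2.32 against 1.55 to 1.91 without Cldn7). Krt7 and Epcam were too dim to be tested. Among lymphocyte markers none of the 4 tested was called by limma, the summed level was 11.7 to 13.4 against 10.8 to 13.3, and Cd8a did not clear the background anywhere. The part of the hepatocyte, macrophage, cholangiocyte and lymphocyte lists in the values of the 10 genes was not tested.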

How the data were processed

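Total RNA of 3 normal livers and 3 liver tumors was hybridised to 6 Agilent SurePrint G3 Mouse GE arrays with 1 dye. The authors deposited, per array, the output of Feature Extraction (12.0.3.1 in the submitters' processing notes and 10.7.3.1 in the headers). Its processed signal is an intensity after background subtraction. A table of ratios, deposited as well, held that signal divided by the 75th percentile of its array and was an alternative. Here the deposited intensities were divided by the 75th percentile over all spots of their array and log2 was taken. Control and outlier spots were dropped, and replicate spots were averaged. A probe was tested where all 3 arrays of either group found it well above background, which 24901 of 55681 probes met. The test was limma 3.58.1 in R 4.3.3 (lmFit, eBayes), two-sided, and calls were made at a Benjamini-Hochberg adjusted p under 0.05. The fit was checked on simulated data. The number of arrays limits the precision.

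The brightest probe by mean log2 signal stood for its gene, and all other probes of the 10 genes are given too. For a probe that no array of a group found well above background, the dim side was set, on each array, to the lowest signal of any probe well above background or to the probe's own where higher, and the fold is a lower bound ("at least"). Names, positions and promoters are from RefSeq (GRCm38.p6). Names came through the accession for 27235 probes, the symbol for 3581 and a synonym for 565, and 24300 kept the name of the array's design.

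The 10 genes, the lists of pathway genes and the marker lists were chosen with earlier results of these data known. From each pathway list the rule named all genes called with a change of 2-fold or more, up to 6 in each direction, and Igf1, Igf2, Igfals, Igf2r and Irs2 always. For Igfbp1 it named the 3 genes with the highest correlation over the 6 arrays. Members of marker lists and undetected list members were named after their values were seen. So were Trib1, Acaca, Srebf1, Apoc3 and Htra3, which the rule did not name. Some other called genes below 2-fold, Ctgf among them, were counted but not named. The motifs, G6pc for display and the other genes outside the 10 whose windows were searched were chosen after the values were seen.

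Alternatives were normexp background correction (offset 50), quantile normalization, scaling by the median of 10 spike-in control probes, no filter and a stricter filter on dim probes, the deposited ratios, a block for the replicate number, a trend in eBayes, averaging the probes of a gene, the methods' t-test, unpaired and paired, the methods' criteria (2-fold in means, a group mean above 1 and p under 0.05 unadjusted) and leaving out each array. Tables and figures were made in Python 3.11.15 (numpy 2.4.6, pandas 2.3.3, matplotlib 3.10.9, scipy 1.17.1).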

Additional observations from a re-analysis of the deposited data

How the results depend on the processing

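Igfbp1 remained higher in the tumors under all 18 alternatives (log2 difference 3.62 to 4.45) and was called under all of them except the paired t-test (adjusted p = 0.127). Igfbp4 stayed lower (-0.66 to -0.49) and lost its call under 3 alternatives, and Igfbp5 stayed lower (-2.05 to -0.91) and lost its call under 8. Igfbp6, not called throughout, ran from -0.59 to 0.03 with an array left out, above 0 only without tumor 2. Among the named pathway genes, Igfals (adjusted p = 0.0575) and Sh2b2 (0.0679) lost their calls without the filter on dim probes, and Irs4, Sh2b2, Pck1, G6pc, Pnpla3 and Esm1 in the unpaired t-test (0.051 to 0.18). The number of the 10 genes called was 3. It was 5 with eBayes with a trend and 5 with the mean of a gene's probes, which added Insr and Irs1, and 1 by the methods' criteria (Igfbp1). With Benjamini-Hochberg adjustment it was 0 by the methods' paired t-test and 2 by the unpaired form. At an unadjusted p under 0.05 it was 2 by the paired and 3 by the unpaired t-test. Leaving out each array in turn gave 2 to 4 called by limma. Of the 74 pathway genes 29 were called, with 19 without the filter on dim probes, 12 by the methods' criteria and 22 to 25 with an array left out. The unpaired t-test called 19 and the paired 0, against 34 and 22 at an unadjusted p under 0.05. Of all probes 8239 were called, with 5077 under spike-in scaling, 4674 without the filter and 2036 by the methods' criteria. With an array left out, 4954 to 7171 were called, the lowest without normal liver 2. The unpaired t-test called 5261 and the paired 0, against 10069 and 7419 at an unadjusted p under 0.05. Apart from fewer samples or tests in those settings that remove them, the cause of these changes was not tested.

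The labels do not say whether samples with the same replicate number share an animal. Deviations of same-numbered samples from their group means correlated at 0.0687, 0.132 and 0.0506, and the samples were treated as unpaired. With the number as a block, 3 of the 10 genes (Igfbp1, Igfbp4 and Igfbp5), 27 pathway genes and 7021 probes were called, and Irs2 was called as lower (log2 difference -0.79, adjusted p = 0.0266). The arrays bear on RNA only, with 3 samples a group on 1 slide each. The offset of 50 in the normexp background correction by itself shrinks differences of dim probes. With that correction they went from -1.66 to -0.91 for Igfbp5 and from -0.46 to -0.28 for Igf1r.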

Other observations

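Probes of a gene did not always move together among the genes listed here. For Apoc3, an apolipoprotein that insulin represses, the brightest probe had a log2 difference of -0.11 (limma adjusted p = 0.462), while a dimmer one gave 1.29 (adjusted p = 0.00235). For Cldn7, a tight junction gene of bile duct cells, the brighter probe was higher in the tumors (log2 difference 2.70, adjusted p = 0.0419). The dimmer one did not clear the background in the tumors and was at least 1.72-fold lower (adjusted p = 5.4e-05). That dimmer probe passed the filter through the normal livers alone, where it read only 0.173, 0.185 and 0.172. For Stab2, a scavenger receptor of liver endothelium, the brightest probe gave -0.78 (adjusted p = 0.0154), and the other 2 gave 0.09 and 0.02. The probes of Insr, Irs1 and Igfbp2, in contrast, each gave one direction.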
